A study of Mus musculus with 52 samples.

Results

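Type 1 conventional dendritic cells (cDC1) of the mouse that had received no stimulus were compared after 24 h and after 4 h in culture. All 4 untreated libraries of each time were taken by their labels, which is 8 of the 52 libraries of the series. The comparison is that of the untreated controls between the times at which the study measured the effects of prostaglandin E2 (PGE2) and other stimuli. Per the labels, bone marrow of C57BL/6 mice was cultured with 55 ng/ml FLT3L and 300 pg/ml GM-CSF for 9 days and then for 5 more days, and the CD103-positive cDC1 were sorted and seeded in 200 ul of medium with these growth factors. Both groups therefore carry the same growth factors and differ in the labels by their time alone. The 8 libraries of cDC1 given 100 ng/ml PGE2 for 4 h or 24 h entered the same fit and are set beside the untreated cells at the end.

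The cDC1 lineage depends on the transcription factors BATF3 and IRF8 and on the receptor for FLT3L, and it takes up dying cells and presents their antigens to CD8 T cells. On contact with microbial products or inflammatory signals, dendritic cells mature: they raise CCR7, which guides them to lymph nodes, together with costimulatory molecules such as CD40, CD83 and CD86. Sorting removes the cells from their culture and exposes them to mechanical stress, and the hours afterwards in a small well are themselves a change of surroundings. Untreated cells at a later time are thus the reference for what such cells do without a stimulus.

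RNA was counted at its 3' end with unique molecular identifiers (UMIs). The untreated libraries held 54107, 264777, 312559 and 331055 counts at 4 h (A to D) and 332616, 323797, 318971 and 270182 at 24 h. The 4 h library A stood apart in its depth and in its share of counts on ribosomal protein genes, which was 3.21% against 4.16% to 4.23% in the 3 other 4 h libraries and 4.53% to 5.12% at 24 h. In library A a count of 0 allows up to 51.4 CPM (the counts as a rate on the library total, scaled by TMM), against 8.76 to 11.1 CPM in the 7 others, for counting error only. Transcripts encoded by mitochondria took 1.75% to 2.12% of counts in the 8 libraries. The labels name no batch, so time and any batch that went with it cannot be told apart, and they do not tie the 4 libraries of a group to separate animals, so p-values measure the spread between these libraries.

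The markers of cDC1 were present at both times. Batf3 was at 258 ± 7.46 CPM at 4 h and 186 ± 50.8 CPM at 24 h, Irf8 at 4814 ± 174 CPM at 4 h and 4090 ± 64.9 CPM at 24 h, and Itgae, which encodes CD103, at 509.5 ± 132 CPM at 4 h and 507 ± 69.4 CPM at 24 h. The chemokine receptor gene Xcr1 was at 282 ± 22 CPM at 4 h and 259 ± 33.6 CPM at 24 h and Clec9a, the receptor for dead cells, at 66.7 ± 12.8 CPM at 4 h and 57.7 ± 7.39 CPM at 24 h. Cadm1 was at 169 ± 72 CPM at 4 h and 212 ± 34.1 CPM at 24 h, Naaa at 1306 ± 198 CPM at 4 h and 1486 ± 80.2 CPM at 24 h, Flt3 at 231 ± 26.3 CPM at 4 h and 245 ± 43.4 CPM at 24 h and Zbtb46 at 75.1 ± 39.7 CPM at 4 h and 79.6 ± 20.6 CPM at 24 h. The label cDC1 thus had all 9 of its markers in both groups, and none of the 9 passed the test for a change with time.

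Of 5403 genes tested, 234 (4.33%) differed between 24 h and 4 h at an adjusted p of at most 0.05 (edgeR quasi-likelihood test, Benjamini-Hochberg adjustment). Higher at 24 h were 125 genes (2.31%) and lower were 109 (2.02%). The labels' own threshold, which also asks for a log2 fold change of 1.5, left 26 genes (0.481%), 11 higher and 15 lower. The median log2 fold change over all genes tested was 0.01. Irrespective of the test, the 4 libraries of one time all lay above those of the other for 266 genes at 24 h (4.92%) and for 222 genes at 4 h (4.11%). Among the 234 called genes 180 were separated in this way and 54 overlapped. Without the shallow 4 h library A, 238 genes were called, 207 of them among the 234. Without 4 h B 68 genes were lower, and without 4 h C 78 were higher, the counts furthest from those over all libraries.

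Tgfbi fell with the smallest adjusted p. It encodes a secreted matrix protein that cells make in response to TGF-beta, and lies at chr13:56609523-56639562 (GRCm38, GENCODE M21). Its level was 719, 857, 759 and 879 CPM in the 4 h libraries A to D and 299.6, 248, 248 and 282 CPM at 24 h. Every 24 h library was below every 4 h library, and the change was -1.60 ± 0.13 log2 (SE, adjusted p = 6.08e-23). Ighm, the constant region of the IgM heavy chain (chr12:113418558-113422730), went from 274, 450.5, 435 and 368 CPM to 109.7, 113, 135 and 134 CPM. Its groups were apart as well, with a change of -1.71 ± 0.17 log2 (adjusted p = 1.1e-15). Cd81, a tetraspanin of the plasma membrane, fell by 1.24 on the log2 scale (adjusted p = 9.39e-12) and Lgals3, which encodes the lectin galectin-3, by 0.73 (adjusted p = 8.91e-12). Lgals3 was an abundant transcript, at 8650 ± 1450 CPM at 4 h and 5268 ± 204 CPM at 24 h. Gclm, the modifier subunit of the enzyme that starts glutathione synthesis, fell from 322 ± 53.9 CPM at 4 h to 129 ± 31.3 CPM at 24 h, a change of -1.37 ± 0.17 log2 (adjusted p = 5.3e-11). Gm26917, annotated as a long intergenic noncoding RNA on chromosome 17, fell from 603 ± 119 CPM at 4 h to 253 ± 3.54 CPM at 24 h. Lmna, which encodes the nuclear lamins A and C, fell by 1.13 on the log2 scale (adjusted p = 7.88e-11).

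The largest falls among genes that reached 50 CPM and had separate groups were those of Wfdc17, Rac2 and Sema4d. Rac2 encodes the GTPase of blood cells that acts on actin and on the NADPH oxidase, and lies at chr15:78559167-78572783. It was at 119.8, 96, 76.3 and 119.7 CPM at 4 h and at 35.6, 15.7, 15.3 and 18.1 CPM at 24 h, a change of -2.19 ± 0.32 log2 (adjusted p = 4.92e-08). The 24 h library A was the highest of its group and still below each 4 h library. Wfdc17, a small secreted protein of the whey acidic protein family, changed by -2.31 ± 0.43 log2, from 56.7 ± 23.3 CPM at 4 h to 11.6 ± 6.06 CPM at 24 h (adjusted p = 4.03e-05). Sema4d, the semaphorin CD100, changed by -2.09 ± 0.46 log2, from 76.7 ± 35 CPM at 4 h to 15.6 ± 8.96 CPM at 24 h (adjusted p = 0.000853). Hvcn1, the voltage-gated proton channel that balances charge during the oxidative burst, fell by 1.52 and Cpne2, a calcium-dependent membrane-binding copine, by 1.51 on the log2 scale (adjusted p = 0.000955 and 7.55e-05).

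A further 4 of these falls depended on single libraries. Epb41l2, a membrane skeleton protein, changed by -1.70 ± 0.35 log2 (adjusted p = 0.000313, and 0.0583 without 4 h C in a range of 6.39e-05 to 0.0583 over 16 alternatives). Osbpl8, a lipid transfer protein at contacts of the endoplasmic reticulum (ER), changed by -1.63 ± 0.45 log2 (adjusted p = 0.0137, and 0.111 without 24 h A in a range of 0.00224 to 0.111). Nrf1, a transcription factor of mitochondrial genes, changed by -1.57 ± 0.38 log2 (adjusted p = 0.00351, and 0.0834 without 4 h B in a range of 0.00218 to 0.0834). Apc, part of the complex that marks beta-catenin for destruction, changed by -1.44 ± 0.41 log2 (adjusted p = 0.0202). In the alternatives the adjusted p was 0.012 to 0.139 and passed 0.05 without 4 h B or C, without 24 h A or B, with DESeq2 and with no filter. Here and below, an adjusted p that passed 0.05 was above it, so that the call was lost.

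Stfa2 rose most. It encodes a stefin A, an inhibitor of cysteine proteases, at chr16:36403992-36408457, and belongs to a cluster of near-identical copies between which the counting could have split reads. It was at 34.2, 3.69, 0 and 11.7 CPM at 4 h and at 56.4, 103, 82.5 and 72.3 CPM at 24 h, a change of 3.36 ± 0.51 log2 (adjusted p = 1.1e-07). Fam162a, a mitochondrial protein induced under hypoxia (chr16:36043761-36071594), had the smallest adjusted p of the rises (5.15e-09). It went from 85.6, 107, 121 and 149 CPM to 359, 326, 330.1 and 231 CPM, a change of 1.34 ± 0.18 log2. For both genes all 24 h libraries lay above all 4 h libraries.

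Ttc39a, a tetratricopeptide repeat protein, rose from 10.4 ± 7.22 CPM at 4 h to 67.8 ± 20.1 CPM at 24 h (2.33 ± 0.47 log2, adjusted p = 0.000206). Cd209e, a C-type lectin related to DC-SIGN, rose from 11.7 ± 4.66 CPM at 4 h to 49.8 ± 16.3 CPM at 24 h (2.23 ± 0.48 log2, adjusted p = 0.00062). Its neighbour on chromosome 8, Cd209a, a further lectin of this family and a marker of type 2 conventional dendritic cells (cDC2), rose by 1.20 ± 0.32 log2 (adjusted p = 0.00996), a call lost without 4 h C (0.227) or 24 h C (0.0763) in a range of 0.000832 to 0.227 over 16 alternatives. Ltc4s, which makes leukotriene C4, rose from 10.9 ± 11.5 CPM at 4 h to 56.3 ± 10.6 CPM at 24 h (1.97 ± 0.43 log2, adjusted p = 0.000673) and Sult1a1, a sulfotransferase of phenols, from 13.3 ± 3.34 CPM at 4 h to 51 ± 3.28 CPM at 24 h (2.02 ± 0.46 log2, adjusted p = 0.0014). In the shallow 4 h library A, Ttc39a and Ltc4s had no count.

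Further rises were those of Nedd4, a ubiquitin ligase, from 69.5 ± 13.6 CPM at 4 h to 164 ± 43.2 CPM at 24 h (1.21 ± 0.24 log2, adjusted p = 0.000123), of Rtl8b, a gene derived from a retrotransposon, from 120.1 ± 70.8 CPM at 4 h to 351 ± 29.4 CPM at 24 h (1.29 ± 0.18 log2, adjusted p = 1.02e-08), and of Cd52, a small glycoprotein of the leukocyte surface, from 1052 ± 172 CPM at 4 h to 1679 ± 145 CPM at 24 h (0.64 ± 0.10 log2, adjusted p = 1.03e-06). Nop10, a core protein of the particles that modify ribosomal RNA, rose from 198 ± 25.8 CPM at 4 h to 380.3 ± 36.4 CPM at 24 h (0.90 ± 0.15 log2, adjusted p = 5.78e-06), and Lmo1, a LIM-domain cofactor of transcription, rose by 1.07 ± 0.25 log2 (adjusted p = 0.00235). Phf11b, Sp140, Snx21 and Arsb changed by 1.33, 1.29, 1.22 and 1.24 log2 (adjusted p = 0.0155, 0.0118, 0.0158 and 0.0378), and the call of each depended on single libraries. The adjusted p of Phf11b ran over 0.00452 to 0.172 and passed 0.05 without 4 h B or 24 h C. That of Sp140, a reader of chromatin marks, ran over 0.00318 to 0.194 and passed it without 4 h C or 24 h C. That of Snx21, a sorting nexin, ran over 0.00993 to 0.0991 and passed it without 4 h B, 4 h C or 24 h B. That of Arsb, a lysosomal sulfatase, ran over 0.0275 to 0.117 and passed it without any one of the libraries but 24 h C. Phf11b, Sp140 and Snx21 also failed with DESeq2, Snx21 with no filter on low counts, and Arsb with DESeq2, voom, no filter and all 52 libraries.

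**Figure D1:**
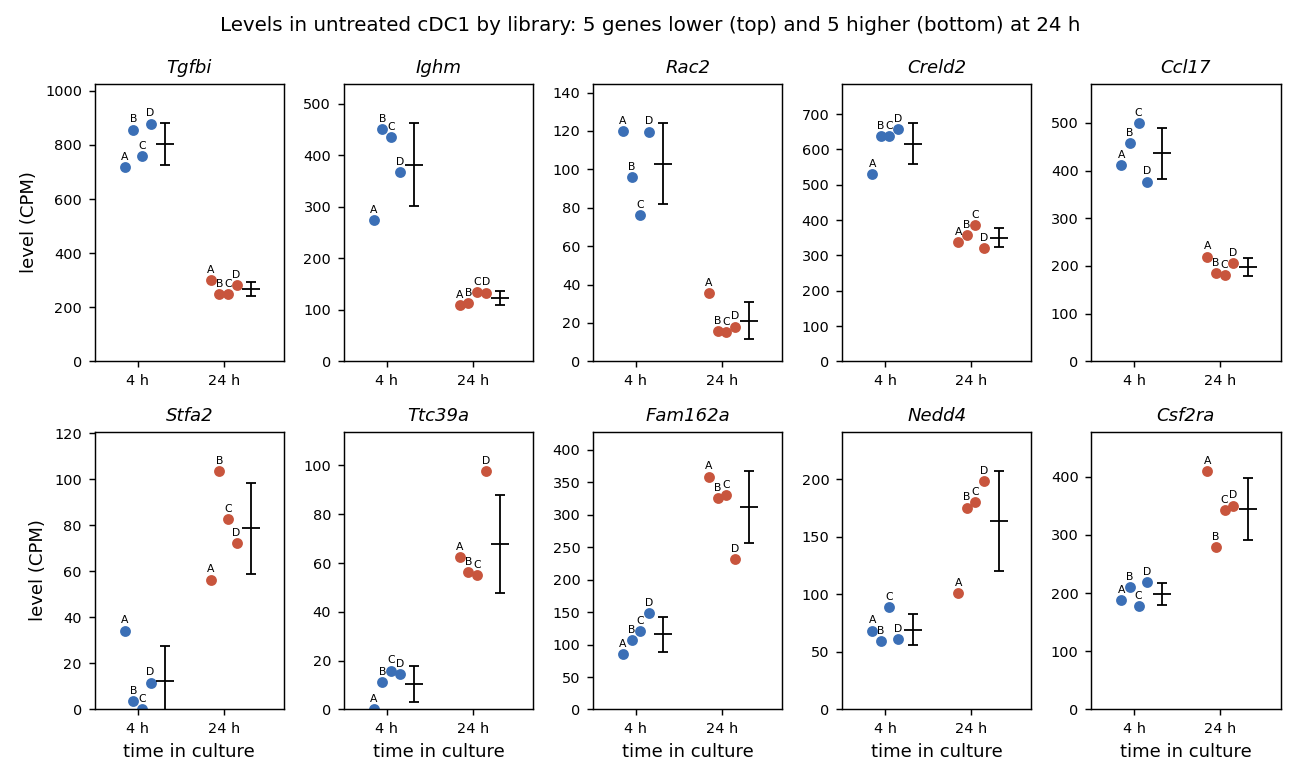
Level in CPM of 10 genes in each untreated library (letters A to D) at 4 h and 24 h, with the mean and SD of 4 libraries beside the points; each panel has its own axis from 0. In every panel the 4 libraries of one time lie above the 4 of the other, as for Tgfbi, at 719 to 879 CPM at 4 h and 248 to 299.6 CPM at 24 h.

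The list of cDC1 identity covered transcription factors, surface receptors and other genes by which cDC1 are told from other dendritic cells. Of 26 members tested, 1 rose and 2 fell, against 2.31% and 2.02% of all genes tested, with a median log2 fold change of 0.09 beside 0.01 over all genes. These shares and this median over all genes are also the background of the counts and medians of every list that follows. The groups were apart for 4 of the 26 with 24 h lower and for 1 with 24 h higher, beside 4.11% and 4.92% of all genes. The summed level of the list was 14551 to 15040 CPM at 4 h and 13905 to 14215 CPM at 24 h, without overlap. Id2, which restrains E proteins and is required for cDC1 development, was at 2825, 3102, 3200 and 3138 CPM at 4 h and 2331, 2447, 2339 and 2410 CPM at 24 h. Its groups did not overlap and it changed by -0.37 ± 0.09 log2 (adjusted p = 0.00286). With no filter on low counts the adjusted p of Id2 was 0.112, in a range of 3.05e-06 to 0.112 over 16 alternatives. Cd36, a scavenger receptor of cDC1, fell from 91.1 ± 18.2 CPM at 4 h to 39.3 ± 14.7 CPM at 24 h (-1.26 ± 0.32 log2, adjusted p = 0.00545). Plet1, a surface protein, rose from 1171 ± 252 CPM at 4 h to 1562 ± 99.5 CPM at 24 h (0.47 ± 0.10 log2, adjusted p = 0.000705). The Plet1 groups overlapped, since the 4 h library A, at 1472 CPM, was above the 24 h library B, at 1419 CPM, and in the fit of all 52 libraries its adjusted p was 0.315 (range 1.52e-06 to 0.315).

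The master regulators Irf8 and Batf3 did not pass the test. Irf8 was at 4742, 4704, 4735 and 5074 CPM at 4 h and 3998, 4145, 4124 and 4094 CPM at 24 h. All 24 h libraries lay below all 4 h libraries, with a change of -0.24 ± 0.09 log2 (adjusted p = 0.0994). Without the 4 h library A its adjusted p was 0.0318, with library totals 0.0285, with DESeq2 0.0113 and with voom 0.00893, so that the call turned on these settings (range 0.00893 to 0.659). Batf3 changed by -0.46 ± 0.18 log2 (adjusted p = 0.144), with non-overlapping groups at 248 to 266 CPM and 123 to 245 CPM. Xcr1, Clec9a, Itgae and Flt3 had changes of -0.14, -0.11, 0.10 and 0.07 log2, with overlapping libraries for each gene (adjusted p from 0.759 to 0.917).

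Receptors and feedback inhibitors of the growth factors in the medium formed a further list. GM-CSF signals through its receptor to JAK2 and STAT5, and the SOCS proteins and CISH are induced by STATs and restrain them. Of 13 members tested, 1 rose and 3 fell, beside 2.31% of all genes tested that rose and 2.02% that fell, with a median of 0.07 beside 0.01 over all genes. Csf2ra, the ligand-binding chain of the GM-CSF receptor, was at 188, 210.5, 178 and 219 CPM at 4 h and 409, 279, 342 and 351 CPM at 24 h. The 24 h libraries lay above all 4 h libraries and the change was 0.78 ± 0.16 log2 (adjusted p = 0.000226). Socs1 went the other way, from 565, 639, 632 and 680.2 CPM to 445, 414, 409.6 and 394 CPM, again without overlap (-0.62 ± 0.13 log2, adjusted p = 0.0002). Socs3 fell from 64.9 ± 3.16 CPM at 4 h to 25.5 ± 8.93 CPM at 24 h (-1.32 ± 0.36 log2, adjusted p = 0.0137), with an adjusted p of 0.0901 without 24 h A (range 0.0107 to 0.0901). Cish changed by -0.79 ± 0.25 log2 with overlapping groups (adjusted p = 0.0376). Over the 16 alternatives the adjusted p was 0.0102 to 0.251 and passed 0.05 without 4 h B, 4 h D, 24 h A or 24 h C, with DESeq2, with voom, with no filter and with the replicate letter in the model.

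Of 14 maturation and costimulation genes tested, none rose and 1, Ccl17, fell, with a median of 0.13. Ccl17, the chemokine that draws T cells bearing CCR4, was at 411, 458, 499 and 377 CPM at 4 h and 219, 185, 180.4 and 206 CPM at 24 h. The groups were apart and the change was -1.15 ± 0.15 log2 (adjusted p = 2.66e-10). Ccr7 was at 257, 126, 108 and 119.7 CPM at 4 h and 122, 97.1, 119 and 169.8 CPM at 24 h (-0.03 ± 0.21 log2, adjusted p = 0.975). The highest Ccr7 value of all 8 libraries was that of the shallow 4 h library A, and the groups overlapped. Cd83 was at 81.5 ± 16.4 CPM at 4 h and 108 ± 3.85 CPM at 24 h, with separate groups and a change of 0.50 ± 0.24 log2 that did not pass the test (adjusted p = 0.27). Cd86, Cd40 and Relb, an NF-kB subunit of mature dendritic cells, had changes of 0.21, -0.52 and 0.59 log2 with overlapping groups (adjusted p = 0.699, 0.617 and 0.422).

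Fscn1, which bundles actin in mature dendritic cells, was at 43.7 ± 16.7 CPM at 4 h and 57.8 ± 17.1 CPM at 24 h (0.59 ± 0.33 log2, adjusted p = 0.382). Ccl22, another ligand of CCR4, was at 147 ± 53.3 CPM at 4 h and 164 ± 39.5 CPM at 24 h and Il12b, a subunit of the cytokine IL-12, at 74.5 ± 32.6 CPM at 4 h and 60.4 ± 20.2 CPM at 24 h (adjusted p = 0.454 and 0.95). Cd274, which encodes PD-L1, did not pass the filter on low counts over the 16 libraries and was not tested, with 0, 3.69, 6.36 and 2.92 CPM at 4 h and 11.9, 0, 6.11 and 10.8 CPM at 24 h. None of 16 migration genes and none of 8 chemokine and cytokine genes tested was called in either direction, with medians of 0.05 and -0.07.

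None of 12 MHC class II genes passed the test, with a median of -0.03. H2-Ab1, the beta chain of I-A, was at 25360 ± 2025 CPM at 4 h and 24532 ± 794 CPM at 24 h and Cd74, the invariant chain, at 19152 ± 2651 CPM at 4 h and 20531 ± 697 CPM at 24 h (adjusted p = 0.835 and 0.648). The 4 h library A was the lowest of its group for Cd74, at 15201 CPM. Of 17 MHC class I genes, 1 rose and 1 fell, with a median of -0.19. Psmb9, an interferon-inducible subunit of the immunoproteasome, rose from 475 ± 43.1 CPM at 4 h to 654 ± 43.6 CPM at 24 h (0.49 ± 0.12 log2, adjusted p = 0.00458). Pdia3, the disulfide isomerase of the peptide-loading complex, fell from 1974 ± 123 CPM at 4 h to 1437 ± 54 CPM at 24 h (-0.45 ± 0.10 log2, adjusted p = 0.000653), and belongs to the ER genes below as well.

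Of 26 interferon-stimulated genes tested, 3 rose and 2 fell, beside 2.31% of all genes tested that rose and 2.02% that fell, with a median of 0.03 beside 0.01. The falls were Ifitm3, at 428, 384, 362 and 329.9 CPM at 4 h and 202, 150.4, 153 and 213 CPM at 24 h, and Ifitm1, at 1951, 1739, 2066 and 1956 CPM and 1400, 1372, 1385 and 1341 CPM, both membrane proteins that block virus entry. Neither had overlapping groups, and the changes were -1.02 ± 0.15 log2 (adjusted p = 6.96e-08) and -0.49 ± 0.09 log2 (adjusted p = 7.01e-05). As paralogs, Ifitm1 and Ifitm3 could have shared reads with each other and with Ifitm2, which was at 339 ± 78.8 CPM at 4 h and 358 ± 45.5 CPM at 24 h (adjusted p = 0.989). The rises were Phf11b, described above, Bst2, which tethers budding virus, at 0.97 ± 0.28 log2 (adjusted p = 0.0188), and Ly6e at 0.34 ± 0.10 log2 (adjusted p = 0.0266). The adjusted p of Bst2 ran over 0.0113 to 0.119 and passed 0.05 without 4 h C, 4 h D or 24 h D and with DESeq2. That of Ly6e ran over 0.00357 to 0.131 and passed it without 4 h A, B or C, without 24 h A or B, with DESeq2 and with no filter.

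Of 19 immediate-early genes 2 fell, Socs3 and Ier3, and none rose, with a median of -0.01. Ier3, an early gene of growth factor and NF-kB signalling, went from 85.9 ± 25 CPM at 4 h to 43.7 ± 13.5 CPM at 24 h with overlapping groups (-1.10 ± 0.28 log2, adjusted p = 0.00563), and its adjusted p was 0.0579 without 4 h D (range 0.00229 to 0.0579). Fos and Jun, the subunits of AP-1, were at 17.8 ± 13.4 CPM at 4 h and 14.6 ± 6.42 CPM at 24 h and 105 ± 9.83 CPM at 4 h and 124 ± 12.5 CPM at 24 h (adjusted p = 0.999 and 0.708). Among 18 NF-kB genes Ier3 fell and Tnfaip2 rose, by 0.57 ± 0.17 log2 (adjusted p = 0.0266), with a median of 0.02. The adjusted p of Tnfaip2 ran over 0.00811 to 0.185 and passed 0.05 without 4 h B, C or D, without 24 h C or D, with DESeq2, with voom and with no filter. None of 7 cAMP targets, 20 genes of the BCL2 family and cell death, and 7 genes of the integrated stress response was called, with medians of 0.14, -0.18 and -0.17. Of the prostaglandin E2 receptors, Ptger3 was at 84 ± 28 CPM at 4 h and 98.6 ± 7.45 CPM at 24 h (adjusted p = 0.558). Ptger2 and Ptger4 did not pass the filter on low counts and were not tested. Ptger2 was at 24.9 ± 18.9 CPM at 4 h and 12.1 ± 4.82 CPM at 24 h. Ptger4 was at 85.6, 18.5, 31.8 and 23.4 CPM at 4 h and 17.8, 12.5, 9.17 and 18.1 CPM at 24 h, with all 4 h libraries above all 24 h libraries and the shallow library A the highest.

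The genes of protein folding in the ER that changed all fell. Chaperones and disulfide isomerases fold secreted and membrane proteins there, the translocon and its partners bring them in, and a sensor pathway, the unfolded protein response, raises these genes when folding falls behind. Of 22 members tested, 6 fell and none rose, beside 2.31% of all genes tested that rose and 2.02% that fell, and 18 had a negative log2 fold change, with a median of -0.37 beside 0.01 over all genes. The groups were apart, with 24 h lower, for 10 of the 22, beside 4.11% of all genes. The summed level of the list was 9432, 9999, 10102 and 9885 CPM in the 4 h libraries and 8038, 7968, 7911 and 7556 CPM at 24 h. The 4 h library A was the lowest of its time and still above every 24 h library. The number called was 5 without 4 h A, 3 without 4 h B, 3 with DESeq2 and 2 of 24 with no filter on low counts, and the median lay between -0.41 and -0.31 in all 16 alternatives.

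Promoters of this list are shown because genes of the unfolded protein response are known to carry a common control element, the ER stress response element, which the factors ATF6 and NF-Y bind. The element was searched as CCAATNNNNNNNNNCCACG on both strands, in RefSeq windows (GRCm38.p6) from 250 bases before to 50 bases after each gene's start. It was in the windows of 7 of the 20 list members with a window (35%): Calr, Canx, Creld2, Dnajc3, Hsp90b1, Hspa5 and Pdia6. Of 27025 genes with a window 37 (0.137%) held it, and of 4132 tested genes with a window 8 (0.194%). The search was chosen after the values were seen, a match is a description of letters, and the list was assembled from genes known for this response. Calr, Canx, Dnajc3 and Hsp90b1 hold a match and were not called, and Pdia3, P4hb and Edem1 were called lower and hold none in their windows. Below are the windows of the 2 members that both hold a match and fell, Creld2 and Pdia6, and that of Hspa5, the gene of the chaperone BiP, which holds a match and was not called. Capitals mark the match, which in Creld2 lies on the other strand and so reads reversed and complemented. Each is given 5′ to 3′ in the direction of the gene.
Creld2 (chr15:88819396-88819695, plus strand, match at -126 to -108 from the start): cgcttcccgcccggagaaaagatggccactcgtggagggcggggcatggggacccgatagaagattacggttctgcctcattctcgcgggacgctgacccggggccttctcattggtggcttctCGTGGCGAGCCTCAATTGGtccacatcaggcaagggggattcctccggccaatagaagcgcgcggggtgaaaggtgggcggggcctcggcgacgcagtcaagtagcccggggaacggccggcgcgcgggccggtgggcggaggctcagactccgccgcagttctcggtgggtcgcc
Pdia6 (chr12:17266339-17266638, plus strand, match at -98 to -80): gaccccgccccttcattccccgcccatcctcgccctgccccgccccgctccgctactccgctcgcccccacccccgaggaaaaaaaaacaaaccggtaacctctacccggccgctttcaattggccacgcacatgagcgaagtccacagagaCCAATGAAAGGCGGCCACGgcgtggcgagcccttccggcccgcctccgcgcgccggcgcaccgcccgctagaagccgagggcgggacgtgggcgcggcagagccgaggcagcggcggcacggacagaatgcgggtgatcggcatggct
Hspa5 (chr2:34771840-34772139, plus strand, match at -65 to -47): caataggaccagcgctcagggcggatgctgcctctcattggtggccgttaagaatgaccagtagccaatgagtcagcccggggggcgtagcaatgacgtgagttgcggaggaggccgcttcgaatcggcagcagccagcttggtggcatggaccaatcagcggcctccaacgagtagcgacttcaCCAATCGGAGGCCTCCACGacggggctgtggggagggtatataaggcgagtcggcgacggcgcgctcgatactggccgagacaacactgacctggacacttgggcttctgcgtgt

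Creld2, a secreted ER protein that acts on disulfides, was at 531, 639, 639 and 657 CPM at 4 h and 338, 357, 385 and 322 CPM at 24 h. Its groups were apart, and the change was -0.85 ± 0.13 log2 (adjusted p = 1.24e-07). Pdia3 was at 2106, 1828, 2037 and 1924 CPM and 1421, 1457, 1373 and 1500 CPM, with no overlap. P4hb, a further disulfide isomerase and subunit of the collagen prolyl hydroxylase, changed by -0.45 ± 0.11 log2 (adjusted p = 0.00384), with 0.134 without 4 h D and 0.0536 with no filter in a range of 0.000435 to 0.134. Edem1, which directs misfolded glycoproteins to degradation, changed by -0.83 ± 0.24 log2 (adjusted p = 0.0255). Its adjusted p ran over 0.0157 to 0.191 and passed 0.05 without 4 h B, 24 h A or 24 h B, with DESeq2 and with no filter. Hspa5 was at 702, 798, 861 and 779 CPM and 753, 815, 602 and 669 CPM, with overlapping groups (-0.17 ± 0.11 log2, adjusted p = 0.511). The 4 members with a positive change were Dnajb9, Herpud1, Sec61b and Ssr4, at 0.14, 0.02, 0.24 and 0.15 log2, and none of them was called.

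Pdia6, another disulfide isomerase, changed by -0.50 ± 0.15 log2 (adjusted p = 0.0341), with overlapping groups and the 4 h library A low, at 223 CPM. In the alternatives the adjusted p was 0.00932 to 0.166 and passed 0.05 without 4 h B, C or D, without 24 h C or D, with DESeq2, with no filter and with all 52 libraries. Ssr2, a subunit of the translocon-associated complex, changed by -0.58 ± 0.18 log2 (adjusted p = 0.0321). Over the 16 alternatives the adjusted p was 0.0239 to 0.141 and passed 0.05 without any one of the 4 h libraries (0.0525 without A), without 24 h B or C, with DESeq2, with no filter and with all 52 libraries. Outside the list, and chosen after their values were seen, were Serp1, which stabilises membrane proteins in the ER, and Spcs2, a subunit of the signal peptidase. Serp1 fell from 1841 ± 99.3 CPM at 4 h to 1145 ± 88.1 CPM at 24 h (-0.69 ± 0.10 log2, adjusted p = 3.39e-08) and Spcs2 from 622 ± 125 CPM at 4 h to 384 ± 39.4 CPM at 24 h (-0.75 ± 0.13 log2, adjusted p = 3.13e-06).

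Of 20 heat shock and chaperone genes tested 2 rose and none fell, and 16 were positive, with a median of 0.25. Hspa8, the constitutive cytosolic HSP70, was at 377, 513, 486 and 528 CPM at 4 h and 727, 711, 749 and 690.2 CPM at 24 h. The 24 h libraries were all higher and the change was 0.54 ± 0.12 log2 (adjusted p = 0.000955). Hspd1, the mitochondrial chaperonin, changed by 0.64 ± 0.20 log2 (adjusted p = 0.0466). Its adjusted p ran over 0.0217 to 0.396 and was above 0.05, so that the call was lost, in 10 of 16 alternatives. Among them were the fits without 4 h C or D and without 24 h B, C or D. The summed level of the list was 4074, 4331, 4315 and 4309 CPM at 4 h and 5428, 5549, 4897 and 4907 CPM at 24 h, without overlap.

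The ribosomal protein genes that changed all rose. Of 61 tested, 12 rose and none fell, beside 2.31% of all genes tested that rose and 2.02% that fell. A positive log2 fold change was found for 60 of the 61, beside 2730 of 5403 genes tested, and the median was 0.28 beside 0.01. The summed level was 29717, 41189, 41333 and 40900 CPM in the 4 h libraries and 50503, 50698, 47856 and 44186 CPM at 24 h. Library A was thus the lowest by far at 4 h, and the 3 other 4 h libraries also lay below all 24 h libraries. Without 4 h A 4 of 63 genes were called, 60 were positive and the median was 0.23. Without 24 h A 3 of 62 were called and without 24 h B 3 of 61, with medians of 0.27 and 0.26, and without 24 h C 7 of 63. With no filter 4 of 88 were called and with all 52 libraries 6 of 65. The counts of single ribosomal protein genes can be split with their many pseudogenes.

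Rpl13a rose most among the 12, from 103, 185, 216 and 175 CPM at 4 h to 427, 319.6, 315 and 293 CPM at 24 h (0.88 ± 0.16 log2, adjusted p = 4.03e-05). Rpl41 changed by 0.49 ± 0.11 log2 (adjusted p = 0.00114) and Rps19 by 0.45 ± 0.11 log2 (adjusted p = 0.00522). The calls of these 3 genes were made in all 16 alternatives, library A left out included. Rplp0, part of the ribosomal stalk, was at 2054, 3493, 3454 and 3541 CPM and 4336, 4361, 3950 and 3603 CPM (0.33 ± 0.09 log2, adjusted p = 0.0147). Its adjusted p was 0.112 without 4 h A, 0.092 without 24 h A, 0.0908 without 24 h B and 0.0594 with no filter (range 0.0067 to 0.112). Of 35 genes of ribosome biogenesis Nop10 was called, higher, with a median of -0.02 for the list.

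**Figure D2:**
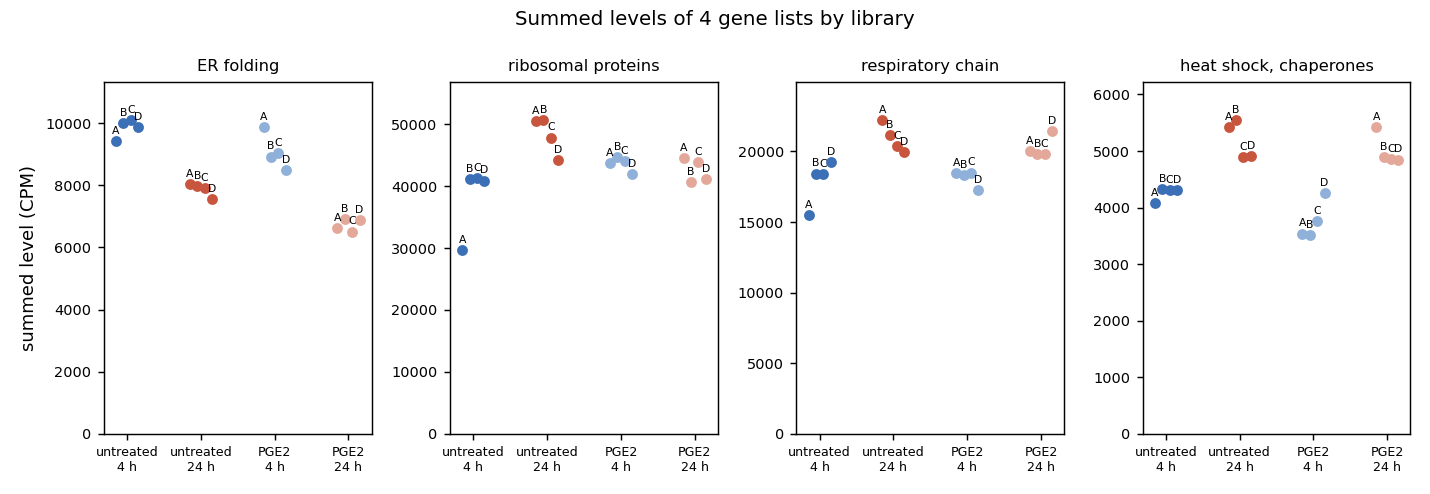
Summed level in CPM of 4 gene lists in each library (letters A to D) of untreated and PGE2-treated cDC1 at 4 h and 24 h, on axes from 0. In untreated cells the ER folding sum is 9432 to 10102 CPM at 4 h and 7556 to 8038 CPM at 24 h, and the ribosomal protein sum is 29717 to 41333 CPM and 44186 to 50698 CPM.

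Of 63 nuclear-encoded genes of the respiratory chain tested 3 rose and none fell, beside 2.31% of all genes tested that rose and 2.02% that fell, and without 4 h C 1 was called. Positive changes were found for 54 of the 63, beside 2730 of 5403 genes tested, with a median of 0.17 beside 0.01. Their summed level was 15475, 18429, 18393 and 19224 CPM at 4 h and 22231, 21164, 20387 and 19932 CPM at 24 h. The lowest 24 h library, D, was above the highest 4 h library, also D. Atp5d, Ndufa6 and Atp5c1, the first and last being subunits of ATP synthase and the other of complex I, changed by 0.50 ± 0.11, 0.50 ± 0.13 and 0.39 ± 0.11 log2 (adjusted p = 0.00145, 0.00778 and 0.025). The adjusted p of Atp5d was 0.0658 without 4 h C (range 0.000289 to 0.0658). That of Ndufa6 was 0.0601 without 4 h B, 0.0518 without 4 h C and 0.052 without 24 h A (range 0.00271 to 0.0601), and that of Atp5c1 was 0.138 without 4 h D, 0.0812 without 24 h B, 0.0581 without 24 h D and 0.112 with no filter (range 0.0287 to 0.138). None of the 6 tested transcripts encoded by mitochondria was called, with a median of -0.06.

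In glycolysis and hypoxia 1 of 18 genes rose, Ldha, lactate dehydrogenase A, from 3058 ± 245 CPM at 4 h to 3818 ± 106 CPM at 24 h with separate groups (0.31 ± 0.09 log2, adjusted p = 0.0221). In the alternatives the adjusted p was 0.00344 to 0.112 and passed 0.05 without 4 h C, 24 h A or 24 h B and with no filter. In the pentose phosphate pathway 1 of 6 rose, Pgls, a lactonase of its oxidative branch, by 0.43 ± 0.12 log2 (adjusted p = 0.0184). Over the 16 alternatives the adjusted p was 0.00415 to 0.106 and passed 0.05 without 4 h B or C, without 24 h A or B and with no filter. The medians of these lists were 0.04 and 0.24. None of 20 genes of cholesterol and fatty acid synthesis was called, with a median of 0.06. Hmgcs1, an early enzyme of the pathway, was at 42.5 ± 7.55 CPM at 4 h and 50.7 ± 13.6 CPM at 24 h (adjusted p = 0.748).

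**Figure D3:**
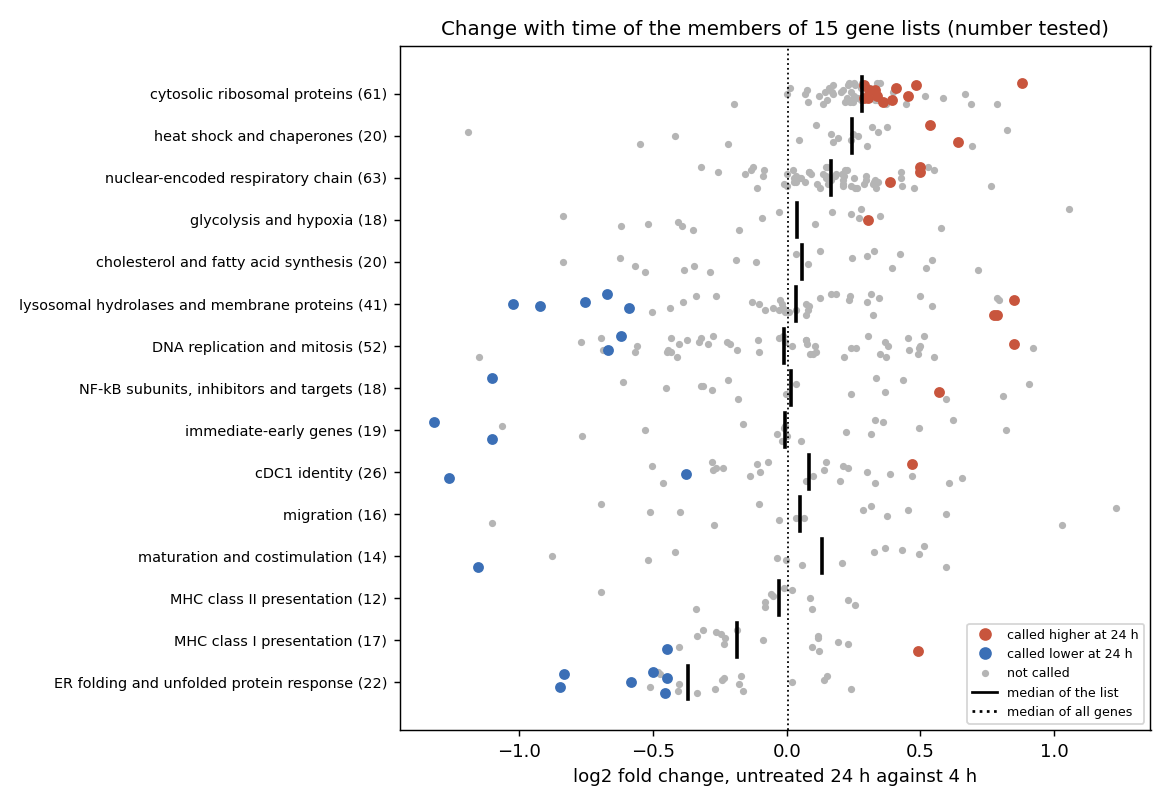
Log2 fold change (24 h against 4 h, untreated) of each tested member of 15 gene lists, the number tested in brackets; black bars are list medians and the dotted line is the median of all genes tested, 0.01. The medians of these 15 lists run from -0.37 for ER folding to 0.28 for ribosomal proteins, and called members are in colour. Lists not drawn include the replication-dependent histones, with a median of -0.45, and the prostaglandin genes, with a median of 0.36.

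Of 41 lysosomal genes tested 3 rose and 5 fell, beside 2.31% of all genes tested that rose and 2.02% that fell, with a median of 0.03 beside 0.01. Among them Hexa and Gusb, which remove terminal sugars from glycolipids and glycans, rose by 0.85 ± 0.18 and 0.79 ± 0.19 log2 (adjusted p = 0.000673 and 0.00261). Hexa was at 34.2, 137, 118 and 234 CPM at 4 h and 269.9, 288, 309 and 246 CPM at 24 h, with separate groups and the shallow library A the lowest at 4 h. The call of Gusb was lost without 4 h C (adjusted p = 0.0545, range 0.00058 to 0.0545). Lgmn and Ctsh, which are cysteine proteases of antigen processing, fell by 1.02 and 0.75 on the log2 scale (adjusted p = 7.55e-05 and 0.00113). Lgmn was at 119.8, 318, 251 and 169 CPM at 4 h and 104, 122, 104 and 126 CPM at 24 h, and the groups of both proteases overlapped, with library A the lowest at 4 h.

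Npc2, which binds cholesterol in the lysosome, fell from 255 ± 26.1 CPM at 4 h to 156 ± 17.1 CPM at 24 h (-0.67 ± 0.17 log2, adjusted p = 0.0079). Cd68, a lysosomal glycoprotein of phagocytes, changed by -0.92 ± 0.24 log2 (adjusted p = 0.0079), with 0.105 without 4 h C (range 0.00311 to 0.105). Of 14 genes of lipid handling, Cd36 and Npc2 fell and Etfb, an electron carrier of fatty acid oxidation, rose by 0.81 ± 0.22 log2 (adjusted p = 0.0107), with 0.052 without 4 h C (range 0.00851 to 0.052).

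Of 24 genes of iron and redox balance, Gclm fell and Prdx2, a peroxiredoxin, rose by 0.67 ± 0.18 log2 (adjusted p = 0.0123), with 0.0555 without 24 h A (range 0.0121 to 0.0555). Of 8 genes of prostaglandins and leukotrienes 2 rose and none fell, with a median of 0.36. These were Ltc4s and Ptgs1, the constitutive cyclooxygenase, which was at 154, 185, 181 and 219 CPM at 4 h and 231, 313, 266 and 365 CPM at 24 h (0.60 ± 0.17 log2, adjusted p = 0.0218). The adjusted p of Ptgs1 ran over 0.00922 to 0.128 and passed 0.05 without 4 h B or C, without 24 h B or D, with DESeq2 and with voom. Of 16 receptors and adaptors of pattern recognition and uptake, Cd209a rose, and Cd36 and Myd88, the adaptor of most Toll-like receptors, fell. Myd88 changed by -0.56 ± 0.17 log2 (adjusted p = 0.0371). Its adjusted p ran over 0.00653 to 0.215 and was above 0.05, so that the call was lost, in 9 of 16 alternatives. Among them were the fits without 4 h B or D and without 24 h A, B or C. Tlr3, the sensor of double-stranded RNA, was at 25.8 ± 11.1 CPM at 4 h and 34.8 ± 21.4 CPM at 24 h (adjusted p = 0.809).

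Of 36 actin genes, Rac2 and Vim, an intermediate filament protein, fell and Pfn1, which feeds actin monomers to growing filaments, rose. Vim changed by -0.33 ± 0.09 log2 (adjusted p = 0.0135, range 2.57e-05 to 0.248) and was not called without 4 h B, 4 h D or 24 h A, with no filter and with all 52 libraries. Pfn1 changed by 0.31 ± 0.09 log2 (adjusted p = 0.0142, range 0.000487 to 0.118) and was not called without 4 h C, 24 h A or 24 h B and with no filter.

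Proliferation genes were present at both times, with 2 falls and 1 rise among 52 tested, near the 2.02% and 2.31% of all genes tested, and a median of -0.01 beside 0.01. Mki67, a marker of cycling cells, was at 548, 339.7, 423 and 298 CPM at 4 h and 219, 204, 263 and 253 CPM at 24 h. The groups were apart, with the 4 h library A highest, and the change was -0.67 ± 0.16 log2 (adjusted p = 0.00281). Ccna2, cyclin A2, changed by -0.62 ± 0.18 log2 (adjusted p = 0.0273). In the alternatives the adjusted p was 0.00621 to 0.218 and passed 0.05 without 4 h B or D, without 24 h C or D, with DESeq2 and with no filter. Pcna, the clamp of DNA polymerase, changed by 0.85 ± 0.27 log2 (adjusted p = 0.0425). Its adjusted p ran over 0.0159 to 0.325 and was above 0.05, so that the call was lost, in 9 of 16 alternatives. Among them were the fits without 4 h B or C and without 24 h A, B or C. Top2a, which untangles replicated DNA, was at 741 ± 124 CPM at 4 h and 566 ± 60.2 CPM at 24 h (-0.33 ± 0.12 log2, adjusted p = 0.108), and was called without 4 h D (0.0496, range 0.0496 to 0.499). None of 6 replication-dependent histone genes was called, with a median of -0.45.

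Most markers of other cells were at low levels or had no count. In bulk RNA, fewer cells of a type and less RNA per cell cannot be told apart. Of 14 lymphocyte markers 5 had counts, and their summed level was 374 to 480 CPM at 4 h and 128 to 148 CPM at 24 h, most of it from Ighm. Ms4a1, a B cell marker, had no count in the 8 libraries. The constant region of IgA, Igha, chosen after its values were seen, fell from 52.5 ± 30.8 CPM at 4 h to 18.3 ± 5.15 CPM at 24 h (-1.70 ± 0.39 log2, adjusted p = 0.00152), with 0.0826 without 4 h C (range 0.000466 to 0.0826). The part of lymphocyte RNA in the fall of Ighm was not tested.

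Of 20 markers of macrophages and monocytes 15 had counts and summed to 1078 to 1671 CPM at 4 h and 1444 to 1904 CPM at 24 h, with Lyz2 at 892 ± 189 CPM at 4 h and 1136 ± 158 CPM at 24 h and Csf1r at 236 ± 47.8 CPM at 4 h and 259.8 ± 38.9 CPM at 24 h. Of the 6 tested 1, Cd68, fell. The defining macrophage gene Adgre1 was at 1.46 ± 2.92 and 0.764 ± 1.53 CPM. Of 14 cDC2 markers 8 had counts, with sums of 25.4 to 103 CPM at 4 h and 81.5 to 128 CPM at 24 h, among them Cd209a at 32.1 ± 23.5 CPM at 4 h and 83 ± 23.3 CPM at 24 h. Sirpa, a defining gene of cDC2, was at 0.923 ± 1.85 CPM at 4 h and had no count at 24 h. Of 12 markers of plasmacytoid dendritic cells 9 had counts, summing to 114 to 188 and 131 to 206 CPM, and the 1 tested, Bst2, rose. Of 13 markers of erythroid cells and progenitors 3 had counts, summing to 118 to 188 and 194 to 251 CPM, most of it from Cd34, a surface protein of progenitors. Cd34 changed by 0.63 ± 0.19 log2 (adjusted p = 0.0347), and its adjusted p ran over 0.0191 to 0.191 and passed 0.05 without 4 h B, C or D, without 24 h A or C, with DESeq2, with no filter and with all 52 libraries. Markers of granulocytes and mast cells summed to at most 17.1 CPM and those of stromal cells to at most 35.0 CPM, and none was tested.

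The same step from 4 h to 24 h was measured in other libraries of cells that had received PGE2. There the test called 747 of the 5403 genes (13.8%), of which 383 rose (7.09%) and 364 fell (6.74%). Of the 125 genes higher in untreated cells 55 (44%) were also higher under PGE2, which is 14.4% of the 383. Of the 109 lower genes 44 (40.4%) were also lower, which is 12.1% of the 364. Opposite calls were made for 4 and 7 genes. Across the 5403 genes, which are not independent replicates and share library depth and normalisation, the changes of the 2 treatments had a Pearson r of 0.27 and a Spearman rho of 0.26. The difference between the 2 changes passed the test for 236 genes (4.37%), 51 of them among the 234 called in untreated cells.

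Of the 125 genes higher in untreated cells 100 had a positive change under PGE2, and of the 109 lower genes 83 had a negative one, beside 2707 of 5403 genes that were positive under PGE2. Tgfbi fell in both, with changes of -1.60 and -2.24 log2, and more so under PGE2 (difference 0.64 ± 0.18 log2, adjusted p = 0.0233). Ccl17, Cd81 and Gclm also fell in both and more so under PGE2, with differences of 1.15 ± 0.20, 1.23 ± 0.20 and 1.09 ± 0.24 log2 (adjusted p = 1.22e-05, 8.83e-07 and 0.00103). These genes started higher under PGE2, at 1042, 1488 and 631 CPM at 4 h, against 436, 436 and 322 CPM in untreated cells. At 24 h they were at 213, 266 and 116 CPM under PGE2 and at 198, 180 and 129 CPM in untreated cells. Ighm fell in both and less so under PGE2 (-0.83 ± 0.27 log2, adjusted p = 0.0468). It started lower under PGE2, at 200 CPM at 4 h against 382 CPM in untreated cells, and was at 111 and 123 CPM at 24 h. Fam162a, Nedd4, Rtl8b, Nop10, Cd52, Ltc4s and Sult1a1 rose in both, and their differences did not pass the test (adjusted p from 0.336 to 0.978). Creld2 and Pdia3 fell in both, with changes of -1.26 and -0.59 log2 under PGE2, and the ER list had a median of -0.35 there.

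Some changes of untreated cells went the other way or were not called under PGE2. Rac2, which fell by 2.19 in untreated cells, rose by 0.92 log2 under PGE2, the difference being -3.11 ± 0.40 log2 (adjusted p = 2.59e-10). Serp1 fell by 0.69 and rose by 0.39 (-1.08 ± 0.16 log2, adjusted p = 5.47e-08), and Ifitm1 fell by 0.49 and rose by 0.25 (-0.74 ± 0.13 log2, adjusted p = 4.76e-06). Plet1 rose by 0.47 and changed by -0.84 log2 under PGE2, a fall (1.31 ± 0.14 log2, adjusted p = 1.49e-14). For Wfdc17, Hvcn1, Osbpl8 and Ifitm3 the change under PGE2 was -0.09, 0.97, 0.50 and 0.26 log2 and not called, and the difference from untreated cells passed the test (adjusted p = 0.00596, 0.00596, 0.024 and 3.13e-08). Hvcn1 started lower under PGE2, at 11.9 CPM at 4 h against 85.0 CPM in untreated cells. At 24 h it was at 24.7 and 31.6 CPM. Ifitm3 and Ifitm1 started higher, at 1461 and 6043 CPM at 4 h under PGE2 against 376 and 1928 CPM in untreated cells. At 24 h they were at 1741 and 7182 CPM under PGE2 and at 180 and 1374 CPM in untreated cells.

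The ribosomal protein list had a median of -0.01 under PGE2 beside 0.28 in untreated cells, and its sums overlapped between the times, at 41898 to 44750 CPM at 4 h and 40640 to 44534 CPM at 24 h. The difference passed the test for Rps19 (0.58 ± 0.16 log2, adjusted p = 0.017) and Rplp0 (0.53 ± 0.13 log2, adjusted p = 0.00357), and not for Rpl13a or Rpl41 (adjusted p = 0.602 and 0.404). The respiratory chain list had a median of 0.09 under PGE2 and the heat shock list one of 0.39. Among the maturation genes, Ccr7 and Fscn1 rose with time under PGE2, by 1.09 and 2.98 log2, and their changes in untreated cells, given above, differed from these (adjusted p = 0.00419 and 9.26e-05). The difference also passed the test for Batf3, which rose under PGE2 by 1.03 log2 (difference -1.49 ± 0.32, adjusted p = 0.000666). Under PGE2, Batf3 was at 57 ± 19.9 CPM at 4 h and 111 ± 29.8 CPM at 24 h. Both means were below those of untreated cells, 258 CPM at 4 h and 186 CPM at 24 h.

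**Figure D4:**
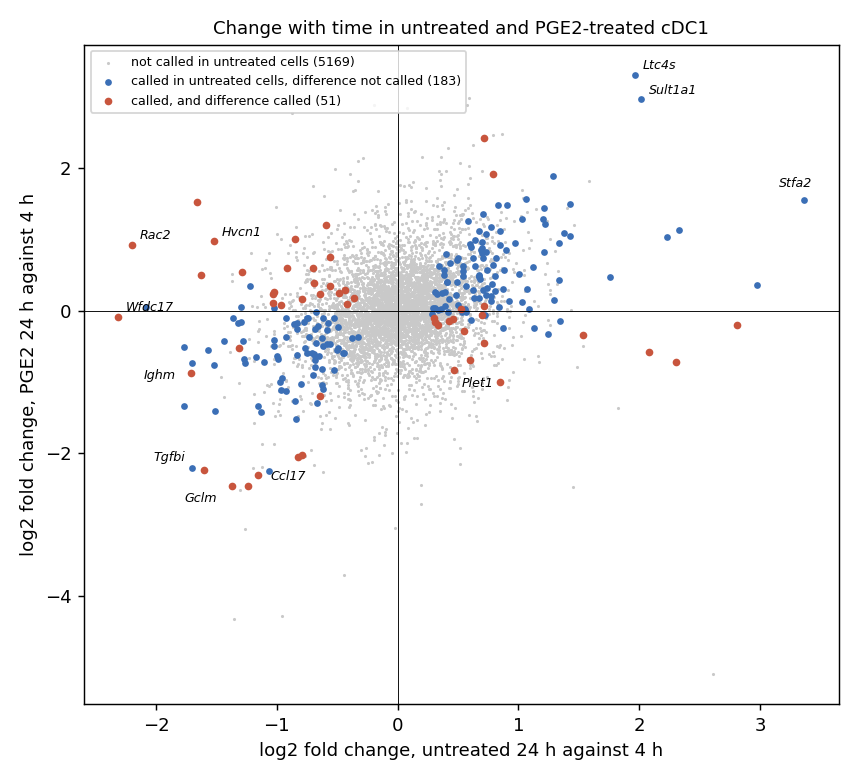
Log2 fold change from 4 h to 24 h of 5403 genes in untreated cDC1 (horizontal) and in PGE2-treated cDC1 (vertical). Tgfbi, Gclm and Ccl17 lie low on both axes, Ltc4s, Sult1a1 and Stfa2 high on both, and Rac2 and Hvcn1 low for untreated cells and above 0 under PGE2.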

How the data were processed

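Bulk RNA of sorted mouse cDC1 was sequenced at its 3' ends with UMIs on a NextSeq 500, per the labels. Per the labels' protocols, the Drop-seq pipeline gave the authors a UMI count for each gene of Ensembl 75 on GRCm38. DESeq2 1.14.1 and GRCm38.p6 stand in the submitters' processing notes. Which aligner was run, and whether strand was used, is not given in the sources used here. Counts of overlapping genes could therefore be mixed with each other. The deposited table held whole-number counts in 23136 lines. A line with a text entry was left out, and 20 lines with symbols turned into dates, holding 0.105% of counts, are named nowhere.

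Counts of the 16 untreated and PGE2 libraries of both times were fitted together with edgeR 4.0.16 in R 4.3.3 (quasi-likelihood, TMM, filterByExpr, robust), adjusting over 5403 genes. Unless another setting is named, an adjusted p is from this fit, SE is that of the fit, and ± beside CPM is the SD of 4 libraries. The scripts were tested on simulated data. Replicates of a group differed beyond counting noise, so none was counted as a repeat. Same-lettered libraries of the 2 times did not deviate together (correlations from -0.07 to 0.01). Counting noise at this depth can hide a shared deviation, so whether the letters pair libraries cannot be told from this. The main fit did not pair them.

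Named genes were the 12 largest changes per direction with separate groups and at least 50 CPM, the 6 smallest adjusted p per direction, members of gene lists and a panel of cDC1 genes. Some genes that met this rule are not reported here. The members and lists were chosen with earlier results of these data known. Alternatives were library totals, DESeq2 1.42.0, voom of limma 3.58.1, other filters, other sets of libraries, the letter as a block and leaving out each library. Gene positions are from GENCODE M21 and promoters from RefSeq, in the same build as the counts.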

Additional observations from a re-analysis of the deposited data

Results flagged for a closer look

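Among 244 groups of 4 values examined, 25 held a library far from the 3 others, measured as the gap to its nearest neighbour over the range of the group. Chance gives this for about 1 in 20 groups only where the 4 values have equal spread. The 4 h library A held 54107 counts, against 264777 in the next lowest untreated library, so counting noise alone spreads its values more. The rate of 1 in 20 therefore does not hold for groups of 4 h libraries, and no excess over chance can be read from the 25. The shallow 4 h library A was the one that stood apart most often. It was the lowest of its group for Arsb (0 CPM), Cd74 (15201 CPM), Cpne2 (68.5 CPM), Creld2 (531 CPM), Naaa (1010 CPM), Pdia6 (223 CPM), Pgls (359 CPM), Prdx2 (68.5 CPM) and Rplp0 (2054 CPM). It was the highest for Ccr7 (257 CPM), Fscn1 (68.5 CPM) and Ssr2 (325 CPM). It also had the lowest share of counts on ribosomal proteins (3.21%) and the lowest summed level of the ribosomal protein (29717 CPM), MHC class II (57415 CPM) and heat shock lists (4074 CPM). At 24 h, library C had the highest sum of the cDC1 identity list (14215 CPM). Other libraries that stood apart were Irf8 in 4 h D, the highest of its group (5074 CPM), Ltc4s in 24 h B, the highest of its group (72.1 CPM), Nrf1 in 24 h C, the lowest of its group (9.17 CPM), Pcna in 24 h D, the lowest of its group (72.3 CPM), Prdx2 in 24 h A, the highest of its group (258 CPM), Rac2 in 24 h A, the highest of its group (35.6 CPM), Sp140 in 4 h C, the lowest of its group (19.1 CPM) and Ttc39a in 24 h D, the highest of its group (97.6 CPM).

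Of 83 named genes called in untreated cells, 19 changed with time differently from PGE2-treated cells by the test of the difference (edgeR, adjusted p of at most 0.05). The change in untreated cells minus that under PGE2 was negative on the log2 scale for Rac2 (-3.11), Hvcn1 (-2.49), Wfdc17 (-2.22), Osbpl8 (-2.13), Myd88 (-1.30), Ifitm3 (-1.28), Serp1 (-1.08), Ighm (-0.83), Gm26917 (-0.79) and Ifitm1 (-0.74). It was positive for Rplp0 (0.53), Rps19 (0.58), Tgfbi (0.64), Gclm (1.09), Ccl17 (1.15), Cish (1.22), Cd81 (1.23), Plet1 (1.31) and Pcna (1.85).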

How the results depend on the processing

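No gene called in untreated cells changed its sign in any of the 16 alternatives. The 234 called genes became 244 with library totals, 156 with DESeq2, 237 with voom, 151 with no filter on low counts, which tests 17373 genes, 227 with a minimum of 20 CPM in 4 libraries, 227 with the 8 untreated libraries alone and 191 with all 52. The 109 lower genes became 67 with DESeq2 and 63 with no filter. The difference from PGE2, 236 genes, became 153 with DESeq2 and 129 with no filter. Leaving out 1 library at a time gave 157 to 239 called genes, 78 to 129 higher and 68 to 124 lower. With the replicate letter as a block 231 genes were called, 216 of the 234 among them, and whether the letters pair libraries is not known.

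Some genes that were not called changed direction. Fos was -0.0168 log2 with library totals and -0.0101 with DESeq2. Leaving out 1 library at a time, log2 fold changes ran from -0.0248 to 0.164 for Flt3, -0.187 to 0.0903 for Ccr7, -0.297 to 0.104 for Il12b, -0.00324 to 0.136 for Cd74, -0.327 to 0.552 for Fos and -0.0375 to 0.657 for Tlr3. The cause was not tested in any of these. The 4 h library A limits what can be seen of genes under 51.4 CPM.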
